A study of Homo sapiens with 8 samples.

Results

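Clusters of NIPBL binding are stretches of the genome in which regions bound by NIPBL lie close together, and they are described here in GM12878 cells. Overlapping NIPBL peaks of the 2 replicates were merged on chromosomes 1 to 22, the merged regions that held a peak of each replicate were kept, and kept regions at most 12.5 kb apart were stitched. Stitched groups of at least 5 regions were taken. They numbered 241 and held 1559 of the 11340 NIPBL regions. The NIPBL lists alone chose these regions, so the number, spacing and strength of NIPBL regions are given as a description and carry no test. The MED1 and SMC1A lists did not enter the choice.

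GM12878 is an established lymphoblastoid cell line, labelled as made from a B lymphocyte. The cells were untreated, and every library came from that line. Per the labels, cells were fixed with 1% formaldehyde for 10 min, and the reaction was stopped by 5 min in 125 mM glycine. Chromatin was immunoprecipitated with an antibody to NIPBL, MED1 or SMC1A, with 2 libraries for each protein, and 2 libraries of whole cell extract were pooled as the control of all 6 peak lists. The labels do not tie the replicates to separate cultures, so p-values measure only the spread between these libraries, which may be technical, and a single line of cells is 1 genotype.

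NIPBL is the protein that loads cohesin onto DNA and drives cohesin to extrude loops. SMC1A belongs to the cohesin ring itself, and MED1 belongs to Mediator, the complex through which factors bound at enhancers reach RNA polymerase II. In human cells the strongest cohesin peaks usually lie at sites of CTCF, a protein that stops loop extrusion and was not measured here, whereas cohesin at enhancers gives weaker peaks. Enhancers that lie close together and carry much Mediator are common near genes that define a cell type, and in B cell lines these include genes of antigen receptor signalling, of the NF-kappaB pathway and of cytokine and chemokine receptors.

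The peak lists held 20878 and 14972 NIPBL peaks, 17690 and 43837 MED1 peaks, and 54761 and 66204 SMC1A peaks in replicates 1 and 2. Because lists of unequal length reach to different depths, a peak is also given by its percentile of fold enrichment within its own list, and a peak above percentile 80 is called strong, which is the top 20% of its list. Fold enrichment is the authors' ratio of ChIP over control at the peak summit. The median pileup at summits was 27 to 38 fragments. Read totals were not available. The lowest control estimate of each library, relative to the highest of these, was 0.743 to 1. This ratio is a proxy for depth and not a measure of it. At the clustered regions the median pileup was 37 and 31 fragments in the 2 NIPBL libraries, with none under 14 and 13.

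Most clusters were small. With 5 regions there were 101 clusters, with 6 there were 55 and with 7 there were 30, and 55 clusters held 8 or more, up to 16. The 208 clusters of 4 regions fell just outside the rule. Another NIPBL region lay past the stitching distance but at most 15 kb away in 35 clusters, and 19 pairs of neighbouring clusters were at most 50 kb apart, so some cluster borders rest on the distance chosen. The median span was 22.4 kb, with quartiles of 16.1 and 29.8 kb and a range of 5.31 to 62.3 kb. NIPBL regions filled a median of 19.1% of the span, and 5.29 to 94.4% in single clusters.

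Gaps inside the clusters were mostly short. The 1318 gaps between neighbours had a median of 2402 bp and quartiles of 723.5 and 5490 bp, and 605 of them, 45.9%, were shorter than 2 kb. Gaps over 10 kb made up 92 of the 1318, or 6.98%, and 77 clusters contained one. Short and long gaps stood in the same cluster at FNBP1, whereas the cluster at MGAT5 had no gap under 1740 bp, and both are described further on.

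**Figure D1:**
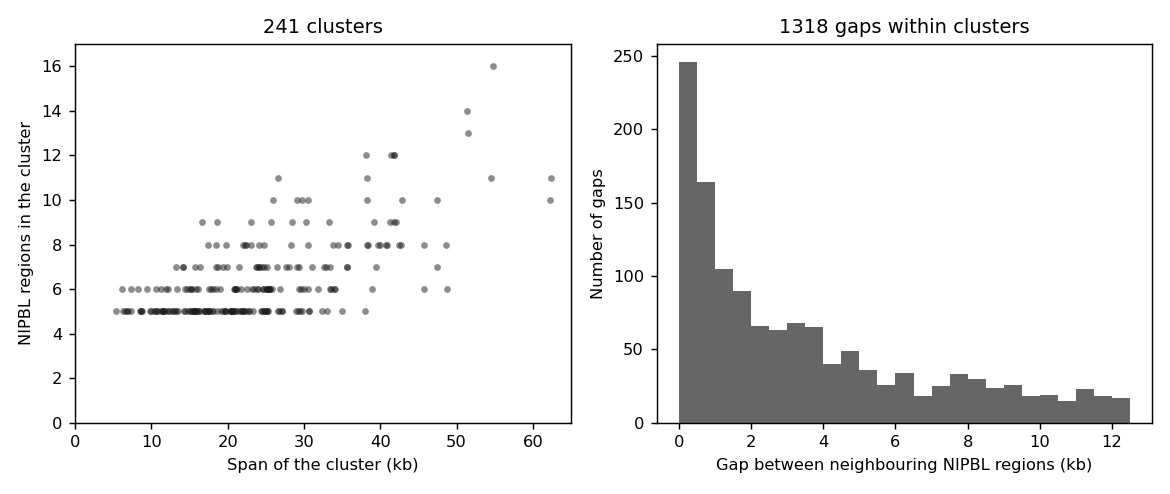
Left, the number of NIPBL regions in each of the 241 clusters (vertical axis) against the span of the cluster in kb (horizontal axis), with 1 point per cluster. Right, the number of gaps (vertical axis) by gap length in kb between neighbouring NIPBL regions (horizontal axis, bins of 500 bp). Spans run to 62.3 kb, and 45.9% of the 1318 gaps are under 2 kb.

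Clustered regions were wider than other NIPBL regions but had like NIPBL fold enrichments. The median width was 595 bp (217 to 7476 bp) in clusters of 5 or more, against 508 bp in clusters of 2 to 4 and 427 bp for regions with no neighbour in reach. Median NIPBL fold enrichment was 4.35 and 4.26 in replicates 1 and 2 for clustered regions, against 4.38 and 4.27 for all other NIPBL regions. Within a cluster, the strongest and weakest regions lay a median of 67.0 percentile points apart (10.3 to 96.9). The strongest region of a cluster stood at a median percentile of 93.0 (mean over both NIPBL lists, lowest 47.5) and its weakest at 22.7. The highest and lowest of several values lie apart by construction. The median of the strongest was 89.8 in clusters of 5 and 95.3 in clusters of 10 to 16. Sets of other NIPBL regions of like size were not compared. At the strongest region the median NIPBL fold enrichment was 6.69 and 6.70, with highest values of 18.8 and 16.8.

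The clusters were spread unevenly over the chromosomes. Chromosome 1 had most, 27, followed by chromosome 19 with 22, chromosome 2 with 19 and chromosome 17 with 16. As a share of the NIPBL regions on the chromosome, chromosome 19 stood highest, with 136 of 449 regions (30.3%) in clusters, ahead of chromosome 15 with 20.6% and chromosome 17 with 20.3%. Chromosome 21 had 1 cluster, with 7 of its 156 regions (4.49%), and none of the 184 NIPBL regions of chromosome 22 was in a cluster of 5 or more.

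MED1 and SMC1A were both found more often at clustered NIPBL regions than at other NIPBL regions. A MED1 region seen in both replicates overlapped 1380 of the 1559 clustered regions (88.5%, exact binomial 95% interval 86.8 to 90.1%), against 67.3% of the others (66.3 to 68.2%). Over all 11340 NIPBL regions the share was 70.2%. For SMC1A the count was 1187 of 1559 (76.1%, 73.9 to 78.2%), against 60.1% of the others (59.1 to 61.1%), and 62.3% over all NIPBL regions. Both partners were present at 1082 clustered regions (69.4%), against 44.2% of the others. MED1 without SMC1A was found at 298 clustered regions, SMC1A without MED1 at 105 and neither at 74. The share with neither was 4.75% in clusters, against 16.9% outside them. The intervals cover counting error only and treat regions as independent, which neighbours in a cluster are not.

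The libraries were then set side by side, since each of them is a replicate and a region is not. A peak of MED1 replicates 1 and 2 overlapped 86.9% and 98.4% of clustered regions, against 66.1% and 93.2% of other regions. A peak of SMC1A replicates 1 and 2 overlapped 77.4% and 88.6% of clustered regions, against 63.0% and 77.7% of other regions. All 4 libraries covered clustered regions more often. The mean difference was 12.8 percentage points (SD 6.51, n = 4 libraries, exact two-sided sign-flip permutation test p = 0.125, the smallest that 4 libraries allow). The direction was not the same in every library under other ways of counting. With the summit of the partner required inside the NIPBL region, MED1 replicate 2 covered 72.0% of clustered regions against 84.4% of others, and with lists cut to equal numbers of top peaks SMC1A covered 9.85% and 10.3% of clustered regions against 11.8% and 12.3% of others. Between the partners, coverage of clustered regions averaged 92.7% ± 8.12 for MED1 and 83.0% ± 7.98 for SMC1A (SD, n = 2 libraries each). The difference of 9.65 points was within the spread between replicates (exact two-sided permutation test p = 0.667, where 2 against 2 libraries can reach 0.333 at best). It changed sign when the summit of the partner had to lie inside the NIPBL region, to -3.88 points, where a broad MED1 peak over several NIPBL regions counts at 1 of them only. With equal numbers of top peaks it was 79.2 points.

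Coverage stepped up with the number of neighbours. For regions with 4 or more companions, with 1 to 3 and with none, MED1 replicate 1 covered 86.9%, 75.6% and 57.3%, and MED1 replicate 2 covered 98.4%, 96.0% and 90.6%. SMC1A replicate 1 covered 77.4%, 70.6% and 56.0% of the same classes, and SMC1A replicate 2 covered 88.6%, 84.7% and 71.2%. Among the clusters themselves only MED1 replicate 1 had a higher share in each larger size class, and it covered 91.2% of regions in clusters of 10 to 16 against 82.6% in clusters of 5. In the same classes MED1 replicate 2 covered 98.6% and 98.6%, SMC1A replicate 1 covered 81.9% and 75% and SMC1A replicate 2 covered 90.7% and 89.5%.

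**Figure D2:**
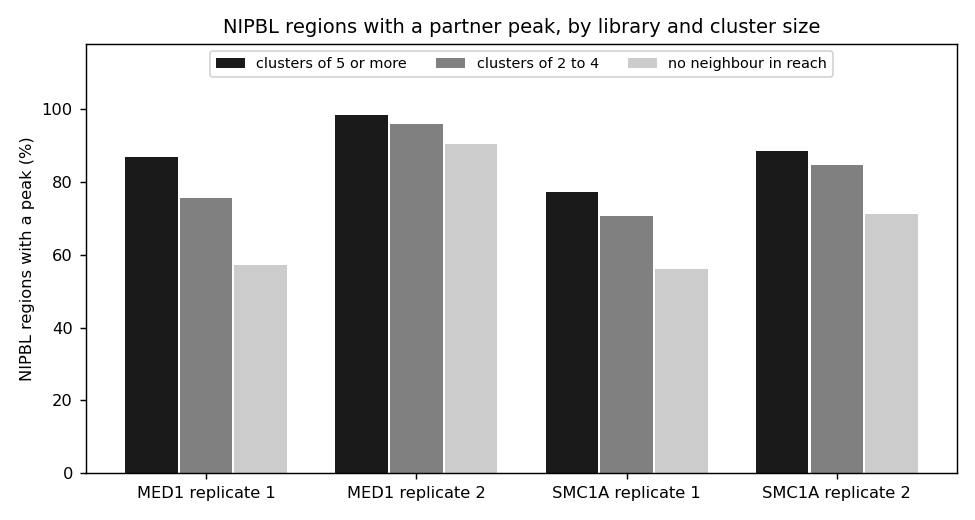
Share of NIPBL regions, in percent, that overlap a peak of each MED1 and SMC1A library (vertical axis), by library (horizontal axis) and by class of NIPBL region. Dark bars are regions in clusters of 5 or more, mid-grey bars regions in clusters of 2 to 4 and light bars regions with no neighbour in reach. In all 4 libraries the dark bar is the tallest and the light bar the shortest, 86.9% against 57.3% in MED1 replicate 1.

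Clustered regions were wider, and coverage was therefore also compared among regions of like width. Among regions over 300 and up to 600 bp, MED1 covered 81.1% and 97.5% of clustered regions against 62.5% and 92.8% of others, and SMC1A covered 67.5% and 84.3% against 58.9% and 75%. Among regions over 1000 bp the classes lay closer together. MED1 covered 97.0% and 99.6% of clustered regions there against 94.4% and 99.3% of others, and SMC1A covered 90% and 94.4% against 90.5% and 96.2%. Split by NIPBL strength instead, the weakest tertile of clustered regions was covered by MED1 at 81.9% and 98.2% against 60.0% and 93.9% of others, and by SMC1A at 64.1% and 79.7% against 53.7% and 71.9%. The strongest tertile gave 93.9% and 99.1% against 75.9% and 94.1% for MED1, and 91.0% and 96.7% against 73.2% and 84.1% for SMC1A.

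The partners differed in how strong their peaks were. At clustered regions the median MED1 fold enrichment was 5.71 and 12.7 in replicates 1 and 2, against 4.37 and 7.70 at other NIPBL regions. These medians stood at percentiles 86.6 and 95.5 of the MED1 lists for clustered regions, against 67.7 and 82.4 for others. Each region takes its strongest overlapping peak, so a broad MED1 peak counts at every region under it. Counted once per peak, MED1 at NIPBL regions inside clusters had medians of 5.25 and 10.9, at percentiles 82.5 and 93.2. SMC1A peaks at the same places were weak for their lists. Their median fold enrichment was 4.51 and 5.17 at clustered regions, against 4.54 and 4.97 at other NIPBL regions, or percentiles 22.4 and 34.3 against 22.7 and 31.9. Clusters thus carried MED1 peaks from the upper part of the MED1 lists and SMC1A peaks from the lower part of the SMC1A lists.

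Broad MED1 peaks often ran over several NIPBL regions. A single MED1 peak lay over at least 2 NIPBL regions in 84 clusters in replicate 1 and in 165 in replicate 2, and over at least 3 in 21 and 63 clusters. MED1 peaks filled a median of 21.8% and 42.1% of the cluster span, and the widest inside a cluster had a median width of 1293 and 3079 bp. MED1 peaks at NIPBL regions had median fold enrichments of 5.25 and 10.9, whereas those between the NIPBL regions of a cluster had 3.45 and 4.20. SMC1A peaks at NIPBL regions and between them had closer medians, 4.34 and 4.87 at the regions and 3.82 and 3.71 between them.

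By cluster, every NIPBL region had a MED1 region in 125 of the 241, every one had an SMC1A region in 65 and every one had both in 42. No cluster was without a NIPBL region that overlapped MED1, and 3 had no NIPBL region that overlapped an SMC1A region of both replicates. MED1 reached fewer than 50% of the regions in 8 clusters and SMC1A in 28. The strongest NIPBL region of the cluster overlapped MED1 in 229 clusters, SMC1A in 220, both in 209 and neither in 1. It was at an end of the cluster in 77 of the 241 (32.0%), and end regions make up 30.9% of all members. The first is a share of clusters and the second a share of regions, in which large clusters weigh more. The shares are therefore not on the same base.

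At the ends of clusters the 2 partners differed from inner regions in opposite directions. SMC1A covered end regions more often than inner ones, 80.5% and 91.1% of the 482 end regions against 76.0% and 87.6% of the 1077 inner regions in replicates 1 and 2, a mean difference of 4.03 points (SD 0.725, n = 2 libraries). MED1 covered end regions less often, 79.5% and 96.5% against 90.3% and 99.3% of inner regions, a mean difference of -6.79 points (SD 5.66, n = 2). Both replicates of each protein gave the same direction, and with 2 libraries an exact sign-flip permutation test cannot go below p = 0.50.

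In the main setting the difference was larger for strong peaks, for SMC1A 12.2 points against 4.03 for all peaks. That order did not hold for SMC1A with equal numbers of top peaks (5.44 against 14.7) or stitched at 5 kb (5.84 against 6.34). A strong SMC1A peak overlapped 67 end regions (13.9%) in replicate 1 and 78 (16.2%) in replicate 2, against 29 (2.69%) and 33 (3.06%) of inner regions. Among all NIPBL regions outside clusters of 5 or more the shares were 9.12% and 10.5%, and among regions with no neighbour in reach they were 11.1% and 12.2%. End regions thus stood above, and inner regions below, the level of NIPBL regions elsewhere in both SMC1A replicates. The excess of ends over NIPBL regions elsewhere depended on the definition. Stitched at 5 kb, the shares were 6.50% and 8.0% at ends, 1.28% and 1.53% at inner regions and 9.02% and 10.4% among other NIPBL regions. Without NIPBL replicate 2, ends had 9.60% and 11.2% against 9.62% and 11.0% of other regions, and with a peak of either NIPBL replicate they had 10.0% and 11.4% against 9.90% and 11.4%. The share at inner regions was below that of ends and of other regions under each of these definitions. In clusters of 3 or 4 regions ends were again above inner regions, 8.17% and 9.71% against 4.67% and 5.60%, but below the NIPBL regions outside clusters of 5 or more. For strong MED1 peaks the order was opposite, with 41.7% and 71.6% of end regions against 58.4% and 83.8% of inner regions, and 22.9% and 50.2% of other NIPBL regions.

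**Figure D3:**
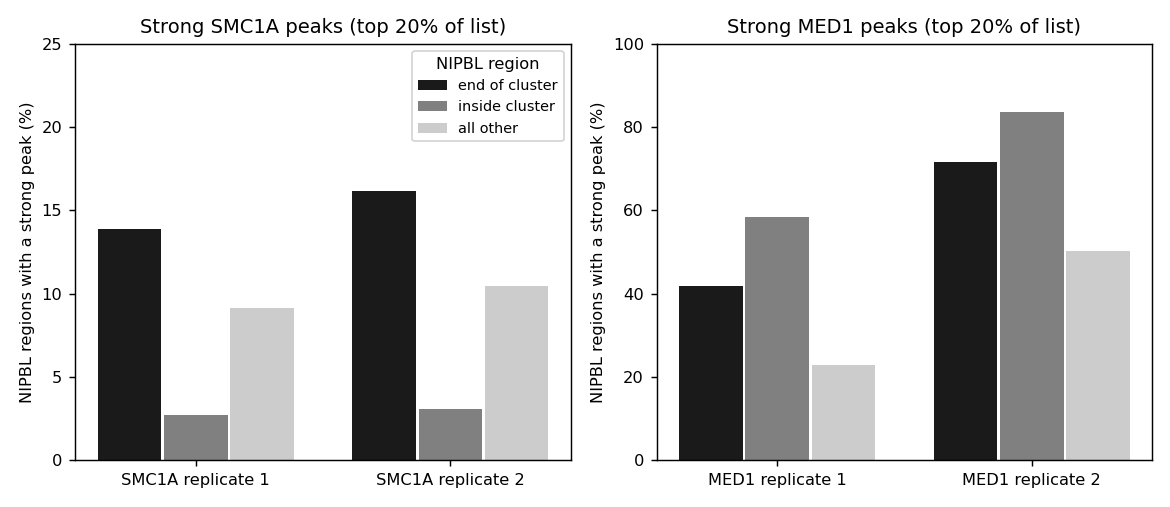
Share of NIPBL regions, in percent (vertical axis), that overlap a strong peak (top 20% of its list by fold enrichment) of each SMC1A library (left) and each MED1 library (right). Bars are, from dark to light, regions at the end of a cluster of 5 or more, regions inside such a cluster and all other NIPBL regions. Strong SMC1A is at 13.9% and 16.2% of end regions and at 2.69% and 3.06% of inner regions, whereas strong MED1 is more frequent inside than at the ends.

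Most clusters had strong SMC1A at neither end, and where it was present it was mostly at 1 end alone. In replicate 1 a strong peak was at 1 end region in 65 clusters, at both in 1 and at neither in 175 (72.6%). In replicate 2 these counts were 72, 3 and 166 (68.9%). The same 67 end regions were called strong in replicate 1 and in both replicates together, so all strong ends of replicate 1 were found again in replicate 2, as were 27 of the 29 inner regions. Of those 67 end regions, 37 also overlapped a MED1 region of both replicates (55.2%), where the share was 81.1% over all end regions and 91.8% over all inner regions. The end with the highest SMC1A enrichment was at chr17:74275514-74275793, the last of 6 regions in its cluster, with SMC1A fold enrichments of 58.0 and 64.0, a MED1 peak in replicate 2 alone (6.07) and NIPBL fold enrichments of 4.70 and 4.65. Next came chr15:75092267-75092902, the last of 6, with SMC1A at 50.0 and 51.9, MED1 at 6.04 and 14.2 and NIPBL at 5.12 and 4.63. The first region of a cluster of 5 at chr2:219741427-219741837 had SMC1A at 46.6 and 49.8, NIPBL at 6.70 and 6.76 and MED1 at 6.67 in replicate 2 alone. That cluster is the one with strong SMC1A at both ends in replicate 1, since its last region, chr2:219762848-219763105, had SMC1A at 21.3 and 23.2.

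Past the edge, peaks of SMC1A and MED1 thinned out differently. Strong SMC1A peaks had their summits at 28.2 and 31.6 per Mb in the outermost 5 kb inside the clusters, a window that contains the end regions by construction, at 8.46 and 10.0 per Mb in the next 5 kb inward, and at 7.05 and 10.4 per Mb in the first 5 kb outside. From 10 to 50 kb outside there were 9.02 and 10.4 per Mb, against 6.34 and 7.69 per Mb at the same distance from single NIPBL regions. Strong MED1 was also densest in the outermost 5 kb inside, at 163 and 227 per Mb. In the next 5 kb inward it stood at 111 and 136 per Mb. Strong MED1 peaks stood at 129 and 172 per Mb inside the clusters, at 3.32 and 14.9 per Mb in the first 10 kb outside and at 16.1 and 28.8 per Mb from 10 to 50 kb. Around single regions these last zones held 1.38 and 6.17, and 4.41 and 10.1 per Mb. The low zone next to the edge is where the rule allows no further NIPBL region, so MED1 peaks that accompany NIPBL are missing from it by construction.

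**Figure D4:**
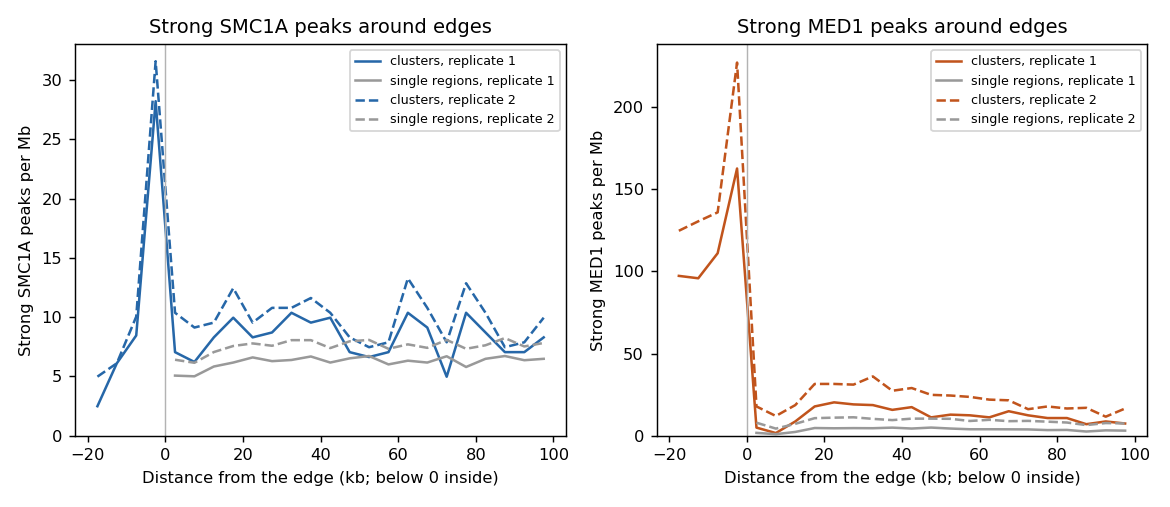
Strong SMC1A peaks (left) and strong MED1 peaks (right) per Mb (vertical axes) in 5 kb steps of distance from the nearest cluster edge in kb (horizontal axes, below 0 inside the cluster). Coloured lines are the clusters and grey lines regions with no neighbour in reach, solid for replicate 1 and dashed for replicate 2. Both proteins have their highest values in the outermost 5 kb inside, 28.2 and 31.6 per Mb for SMC1A and 163 and 227 for MED1. MED1 is high across the whole inside and drops at the edge.

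Compared over the stitching distance on each side, MED1 peaks outside a cluster stood at median percentiles of 43.1 and 40.0 of their lists, against 69.6 and 77.5 for MED1 peaks inside (mean difference -32.0 points, SD 7.84, n = 2 libraries). This sets a zone without NIPBL regions, by the rule, against one that holds them. MED1 peaks inside that lay between NIPBL regions stood at 35.8 and 35.5, below those outside. SMC1A peaks stood at 22.5 and 24.1 outside, against 18.7 and 26.1 inside, a difference of 0.921 points (SD 4.18, n = 2) whose sign differed between the replicates. Those between NIPBL regions stood at 13.8 and 14.2. All are far below the 51.3 and 51.3 of SMC1A peaks elsewhere in the genome. Strong SMC1A flanked 31 clusters within 50 kb on both sides in replicate 1 and 40 in replicate 2 (12.9% and 16.6%), against 7.04% and 9.56% of single regions. On neither side was there a strong SMC1A peak within 50 kb for 112 and 101 clusters (46.5% and 41.9%), against 57.3% and 51.4% of single regions.

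The 12 clusters with most NIPBL regions are taken in turn. Coordinates are hg19. Genes are named where the place of the gene on that build is well known, without an annotation of exons and introns. Pairs of values are replicates 1 and 2, and all are fold enrichments unless another unit is given.

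FNBP1, which encodes an F-BAR protein that links membranes to actin, lies over the cluster with most members. It held 16 NIPBL regions across 54.8 kb at chr9:132750941-132805734. The gaps had a median of 728 bp but ran from 211 to 10556 bp, and the last 7 regions formed 1 dense run. All 16 regions overlapped MED1 and 6 overlapped SMC1A. The strongest region, chr9:132769461-132770068, was the fifth and followed the longest gap, with NIPBL at 9.23 and 9.76, MED1 at 9.92 and 22.1 and SMC1A at 6.60 and 6.23. The first region had NIPBL at 3.49 and 4.59, MED1 at 9.06 and 29.6 and SMC1A at 3.47 and 4.99, and the last had NIPBL at 4.98 and 4.88, MED1 at 6.64 and 18.2 and SMC1A at 3.51 and 3.72. No SMC1A peak inside was strong, and the nearest strong ones lay 102795 and 102784 bp to the left and 63854 and 56378 bp to the right.

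The receptor gene GPR15, whose product guides lymphocytes to the gut, lies in a cluster of 14 regions over 51.4 kb at chr3:98241228-98292609. All 14 carried MED1 and 6 carried SMC1A. MED1 was broad here, with peaks up to 7474 and 8887 bp wide that filled 50.9% and 70.3% of the span, and 1 MED1 peak lay over 4 NIPBL regions in each replicate. The strongest region, chr3:98274582-98276734, had NIPBL at 9.33 and 7.97, MED1 at 19.3 and 35.4 and SMC1A at 6.56 and 6.0. The right end differed from it in all 3 proteins. At chr3:98292167-98292609, NIPBL was 5.13 and 4.97, MED1 3.39 and 10.0 and SMC1A 18.4 and 27.4, and this was the single strong SMC1A site of the cluster.

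DUSP22, a dual specificity phosphatase gene near the tip of chromosome 6, lies under 13 regions over 51.5 kb at chr6:290987-342494. All 13 regions had both MED1 and SMC1A, which no other cluster of more than 10 regions showed. Its widest MED1 peaks measured 7226 and 11190 bp, and the first 3 regions shared 1 of them in both replicates. The strongest region, chr6:305234-306310, had NIPBL at 8.0 and 5.32, MED1 at 7.46 and 18.7 and SMC1A at 4.66 and 5.95. SMC1A was present throughout but never strong, with a highest value of 7.03 and 8.01 in the cluster.

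Another cluster lay to the left of it, upstream of DUSP22, at chr6:209847-236453. It packed 11 regions into 26.6 kb, with a median gap of 789.5 bp and a shortest gap of 5 bp. MED1 was at 10 regions and SMC1A at 10, and both were at 9. Its strongest region by rank, chr6:228791-229802, had NIPBL at 4.27 and 6.18, MED1 at 14.3 and 34.1 and SMC1A at 8.64 and 6.79. The region before it, chr6:226933-228363, lay under the same MED1 peak and had the strong SMC1A peak of the cluster, at 19.2 and 19.2, with NIPBL at 4.02 and 6.26. Here strong SMC1A was inside the cluster and not at an end. Stitched at 25 kb, both clusters at DUSP22 fell into 1 of 28 regions.

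PLCG2 encodes the phospholipase C of B cell receptor signalling. Its 12 regions spanned 41.8 kb at chr16:81830958-81872769, with gaps of 278 to 9317 bp. All 12 had MED1 and 11 had SMC1A. The strongest was the second region, chr16:81831822-81833088, where NIPBL was 7.94 and 7.75, MED1 8.31 and 19.5 and SMC1A 7.08 and 9.0. The fourth region, chr16:81842397-81843178, was close to it in every library, with NIPBL at 7.69 and 7.96, MED1 at 10.3 and 17.9 and SMC1A at 7.17 and 9.24. The region with the lowest NIPBL, chr16:81851427-81851885, still had MED1 at 3.85 and 15.0 and SMC1A at 3.13 and 3.42.

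IL4R and IL21R, neighbouring receptors for cytokines that drive B cell activation and class switching, lie at a cluster of 12 regions over 41.8 kb at chr16:27378711-27420475. High SMC1A and high MED1 lay at different regions of it. The first region, chr16:27378711-27379194, had SMC1A at 22.9 and 26.4 with MED1 at 3.69 and 8.81. The eleventh and strongest, chr16:27416696-27417567, had NIPBL at 7.48 and 6.89, MED1 at 12.9 and 27.9 and SMC1A at 4.21 and 6.16. The last region had MED1 at 7.15 and 14.1 and an SMC1A peak in replicate 2 alone, at 3.73. MED1 was at 11 regions, SMC1A at 7 and neither at 1, which was chr16:27395537-27395935 with NIPBL at 3.26 and 3.10.

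ETV6, a repressor of the ETS family needed for blood formation, holds 12 regions over 41.5 kb at chr12:11877931-11919392. MED1 was at all 12 and SMC1A at 10. The strongest region by rank, chr12:11880066-11880461, had NIPBL at 5.50 and 5.87, MED1 at 7.24 and 19.7 and SMC1A at 4.86 and 6.40. The highest MED1 lay at the other end of the cluster. The eleventh region, chr12:11914885-11916792, had MED1 at 16.4 and 37.0 and SMC1A at 7.08 and 8.79 with NIPBL at 4.62 and 5.43. No strong SMC1A peak was near, the closest being 496555 and 218273 bp to the left and 561540 and 561508 bp to the right.

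Far upstream of MYC, the growth regulator gene, 12 regions spanned 38.1 kb at chr8:128190665-128228746. MED1 was broad in this cluster. A peak 7057 bp wide covered 5 regions in replicate 1, and a peak 14411 bp wide covered 6 in replicate 2. The strongest NIPBL region, chr8:128221312-128223594, lay under these peaks, with NIPBL at 8.89 and 8.06, MED1 at 21.8 and 41.6 and SMC1A at 5.64 and 11.6. SMC1A was highest at the left end, chr8:128190665-128192209, at 17.2 and 17.3, just short of the strong class, where NIPBL was 7.14 and 5.07 and MED1 15.8 and 27.0. In all, 12 regions had MED1 and 10 had SMC1A.

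The longest cluster of all, 62.3 kb at chr15:75384010-75446329, held 11 regions with gaps of 371 to 11411 bp. MED1 was at 8 of them, SMC1A at 9 and neither at 2. NIPBL was highest at the fourth region, chr15:75397066-75398261, at 10.6 and 8.72, with MED1 at 12.9 and 22.3 and SMC1A at 8.48 and 10.4. The last 3 regions had NIPBL of 3.38 to 4.98 in replicate 1 and no MED1 peak in replicate 1.

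TNFRSF13B, the receptor TACI for the B cell survival factors BAFF and APRIL, lies under a cluster of 11 regions over 54.5 kb at chr17:16850855-16905332. The strongest region, chr17:16867818-16868422, had NIPBL at 7.94 and 7.08, MED1 at 14.6 and 30.9 and SMC1A at 5.27 and 7.61. Its MED1 peak of replicate 2 ran 8775 bp, and another MED1 peak of that replicate covered 4 NIPBL regions further right. The last region, chr17:16905010-16905332, lay apart after the longest gap of 11657 bp. It had SMC1A at 22.6 and 22.6, no MED1 peak in replicate 1 and MED1 at 2.88 in replicate 2, with NIPBL at 2.44 and 4.89.

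At USP3, a histone deubiquitinase gene, 11 regions spanned 38.3 kb at chr15:63758860-63797110. The left end, chr15:63758860-63759343, had the highest SMC1A of the 12 clusters, at 30.0 and 44.4. Its NIPBL was 5.44 and 5.28, and MED1 was found there in replicate 2 alone, at 6.07. The next region, chr15:63765198-63767378, was the strongest by rank, with NIPBL at 5.29 and 6.48, MED1 at 8.44 and 17.9 and SMC1A at 8.08 and 9.41. Every region had SMC1A, and 10 of the 11 had MED1.

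MGAT5, an enzyme that branches N-glycans, has the sparsest of the 12 clusters, with 10 regions over 62.2 kb at chr2:134986047-135048246, a median gap of 4972 bp and 9.71% of the span in NIPBL regions. No MED1 peak there lay over more than 1 NIPBL region. The strongest region, chr2:135010816-135011352, had NIPBL at 6.16 and 5.84, MED1 at 6.07 and 13.7 and SMC1A at 5.64 and 4.61. SMC1A was higher at the first region, chr2:134986047-134986451, at 15.6 and 13.4 with no MED1 peak in either replicate, and at the third, chr2:135002946-135003398, at 16.6 and 18.7 with MED1 at 3.10 in replicate 2 alone. MED1 was at 7 regions and SMC1A at 9.

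**Figure D5:**
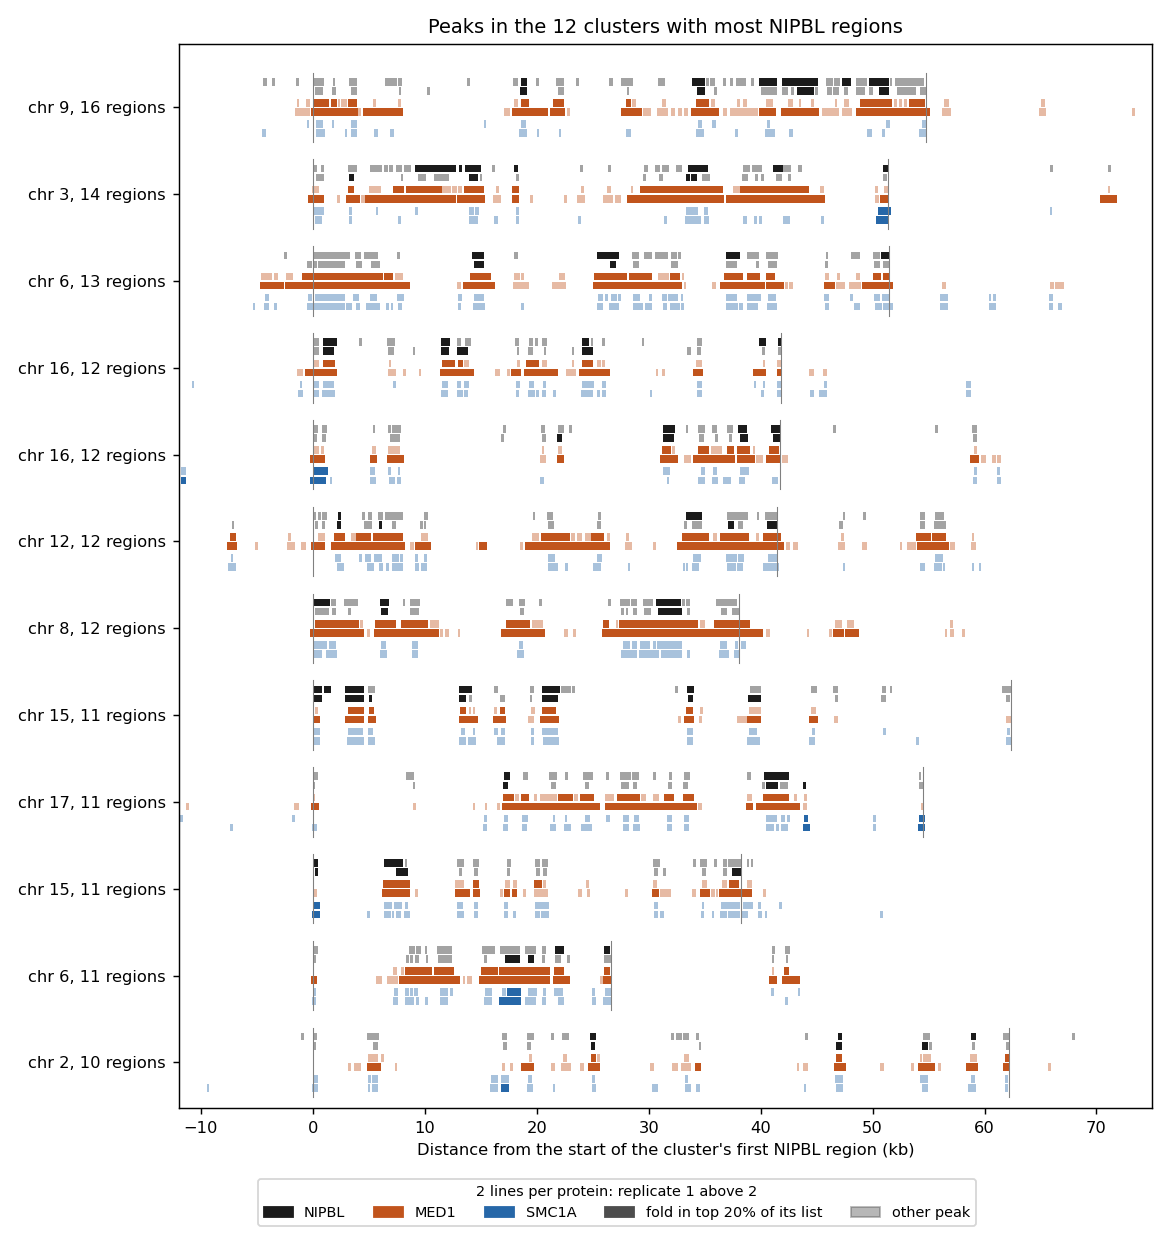
Peaks of NIPBL (black), MED1 (orange) and SMC1A (blue) in the 12 clusters with most NIPBL regions, drawn to scale against distance from the start of the first NIPBL region in kb (horizontal axis), with 1 band per cluster labelled by chromosome and number of regions. Replicate 1 is above replicate 2 for each protein, full colour marks a peak in the top 20% of its list by fold enrichment, and vertical lines mark the cluster ends. Full-colour MED1 runs through the clusters, whereas full-colour SMC1A appears in 6 of them, at an end region in 4: chromosome 3 with 14 regions, chromosome 16 with IL4R, chromosome 17 and chromosome 15 with USP3.

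Of the other 43 clusters with 8 to 10 regions, 41 are described, those at well-known genes first. ALPK2, an alpha kinase gene, had 10 regions over 42.8 kb at chr18:56197027-56239840, with gaps of 50 to 12479 bp. MED1 was at 7 and SMC1A at 9 of them, and neither end overlapped a MED1 region of both replicates. The strongest region, chr18:56201260-56203548, had NIPBL at 6.40 and 6.16 and MED1 at 13.8 and 27.7, whereas the left end, chr18:56197027-56197476, had the highest SMC1A at 23.6 and 25.2. PTP4A2, a protein phosphatase gene, had 10 regions over 38.3 kb at chr1:32391834-32430092, 9 with MED1 and 5 with SMC1A. There NIPBL was highest at chr1:32393985-32395229, at 6.13 and 7.0, and the right end, chr1:32429611-32430092, had SMC1A at 31.3 and 38.3 with NIPBL at 3.93 and 5.42. DENND2D, a gene for a regulator of Rab proteins, had 10 regions within 30.5 kb at chr1:111735412-111765932 with a median gap of 216 bp. All 10 had MED1 and 9 had SMC1A, and MED1 peaks filled 59.8% and 77.3% of the span, 1 of them over 6 regions in replicate 2. Its strongest region, chr1:111746117-111747196, had NIPBL at 10.5 and 11.2 with MED1 at 19.9 and 43.2. The right end, chr1:111765202-111765932, had strong SMC1A, at 23.8 and 25.6, together with MED1 at 19.1 and 37.0, the highest MED1 of the 67 end regions with strong SMC1A in both replicates.

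CIITA, the master regulator of MHC class II genes, had 10 regions over 29.1 kb at chr16:10962397-10991449, with gaps of 478 to 5916 bp. All 10 had SMC1A and 9 had MED1. NIPBL was highest at chr16:10985406-10985983, at 8.57 and 6.93, and no SMC1A peak in the cluster exceeded 7.42 and 8.49. PLEK, which encodes the platelet and leukocyte protein pleckstrin, had 9 regions over 42.1 kb at chr2:68612460-68654545. MED1 was at 7 and SMC1A at 6 of them, and 2 had neither. The eighth region, chr2:68650827-68651736, was the strongest, with NIPBL at 6.90 and 8.85. MAP3K5, the stress-activated kinase ASK1, had 9 regions over 41.7 kb at chr6:137072637-137114384, all with both partners. NIPBL was modest even at the strongest, chr6:137093791-137094633, at 4.64 and 5.17 with MED1 at 9.55 and 23, and the right end had SMC1A at 20.1 and 21.5. ADAM19, a membrane metalloprotease gene, had 9 regions over 41.3 kb at chr5:156998161-157039431 with weak partners. MED1 was at 7 and SMC1A at 5, and the strongest region, chr5:157030361-157030751, had NIPBL at 7.04 and 5.46, MED1 at 3.76 and 8.93 and SMC1A at 3.03 and 2.88.

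CD70 and TNFSF9, neighbouring genes for ligands of the TNF family that costimulate lymphocytes, had a cluster each on chromosome 19. The CD70 cluster held 9 regions over 39.1 kb at chr19:6577256-6616371, 8 with MED1 and 5 with SMC1A, and its first region, chr19:6577256-6578224, was the strongest with NIPBL at 8.94 and 5.29. The TNFSF9 cluster held 8 regions over 40.0 kb at chr19:6516797-6556788, all with MED1 and 7 with SMC1A. Its first region, chr19:6516797-6517752, was its strongest in NIPBL, at 5.66 and 6.79, and carried the highest SMC1A of the clusters of 8 or more in replicate 1, at 33.0 and 35.1. INPP4A, an inositol phosphatase gene, had 9 regions over 28.4 kb at chr2:99076203-99104628, each with both partners. NIPBL reached 7.51 and 7.18 at chr2:99099477-99100121, and SMC1A did not exceed 5.73 and 7.63.

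GCSAM, a signalling adaptor of germinal centre B cells, had 9 regions over 25.7 kb at chr3:111830741-111856402, and MED1 peaks filled 76.5% and 95.5% of that span. The widest MED1 peak measured 8252 and 12882 bp, and a single MED1 peak lay over up to 3 and 5 NIPBL regions. All 9 had MED1 and 6 had SMC1A, and the right end, chr3:111855499-111856402, was the strongest in NIPBL, at 6.27 and 4.60, with SMC1A at 14.2 and 17.5. TNFAIP3, which encodes the NF-kappaB inhibitor A20, had 9 regions packed into 18.6 kb at chr6:138187321-138205879, with a median gap of 230.5 bp and 61.2% of the span under NIPBL. Its first region, chr6:138187321-138188709, was the strongest in NIPBL, at 5.34 and 6.11, and carried SMC1A at 21.1 and 23.6 and MED1 at 6.94 and 18.4. MED1 was at 7 regions and SMC1A at 6, while both were at 4. MOB3A, a kinase activator gene, had 9 regions over 16.6 kb at chr19:2079876-2096509, with no gap over 2241 bp. NIPBL was 9.73 and 11.2 at the strongest, chr19:2085054-2085778, where MED1 was 18.6 and 37.5.

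ASB2, a ubiquitin ligase subunit gene, had the strongest region of the clusters of 8 or more. At its left end, chr14:94425576-94426158, NIPBL was 14.6 and 14.9, MED1 14.4 and 32.8 and SMC1A 6.16 and 11.0. The 8 regions spanned 42.7 kb at chr14:94425576-94468284, and the right end, chr14:94468027-94468284, had SMC1A at 28.8 and 35.4. IKZF1, the lymphoid transcription factor Ikaros, had 8 regions over 42.5 kb at chr7:50306379-50348870, 7 of them with both partners and 1 with neither. NIPBL was 5.07 and 5.75 at the strongest, chr7:50309981-50310690. GPR183, an oxysterol receptor that positions B cells in lymphoid tissue, had 8 regions over 38.4 kb at chr13:99921998-99960363. All had MED1, with 5 regions under 1 peak and a peak of 12043 bp in replicate 2, and 6 had SMC1A. At chr13:99940078-99941032 NIPBL was 7.04 and 5.34. Around ILDR1, an immunoglobulin-like receptor gene, 8 regions over 38.3 kb at chr3:121713971-121752222 had 7 with both partners, and the nearest strong SMC1A to the left was 1199894 and 1199895 bp away. CCR6, the receptor for the chemokine CCL20, had 8 regions over 30.6 kb at chr6:167507379-167537931, all with MED1 and 7 with SMC1A. Its strongest region was the second, chr6:167508115-167509297, with NIPBL at 6.32 and 5.85.

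CD79A, a signalling chain of the B cell receptor, shares a cluster with the ribosomal protein gene RPS19. The 8 regions spanned 28.3 kb at chr19:42363682-42391981, with 7 under MED1, 7 under SMC1A and 6 under both. NIPBL was 5.01 and 5.91 at the strongest, chr19:42380925-42381401, which had MED1 at 6.71 and 20.4. MEF2D, a transcription factor gene, had 8 regions over 24.8 kb at chr1:156450553-156475316. The left end, chr1:156450553-156450882, had SMC1A at 27.3 and 31.1 with NIPBL at 3.42 and 3.43, and the right end, chr1:156474655-156475316, had the strongest NIPBL, at 5.29 and 6.05, with MED1 at 5.92 and 14.6. CD274, which encodes the checkpoint ligand PD-L1, had 8 regions over 22.4 kb at chr9:5437326-5459683. Its strongest NIPBL region, chr9:5442401-5442892, was weak for a cluster, at 4.36 and 4.07, and unlike most it had no MED1 peak in either replicate but SMC1A at 19.3 and 25.5.

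LAPTM5, a lysosomal protein of blood cells that lowers antigen receptor levels, had 8 regions over 22 kb at chr1:31216475-31238447. All 8 had MED1, which filled 51.7% and 86.7% of the span, and only 3 had SMC1A. FCER2, the low-affinity IgE receptor CD23 and a classical surface marker of lymphoblastoid lines, had 8 regions over 19.8 kb at chr19:7755685-7775444. Partners were scarcer here, with 5 regions under MED1, 4 under SMC1A and 2 under neither, although the strongest region, chr19:7770340-7771033, had NIPBL at 8.94 and 9.66, MED1 at 10.2 and 20.7 and SMC1A at 7.38 and 9.85. VMP1 and the microRNA gene MIR21 had 8 regions over 18.5 kb at chr17:57905563-57924064, all with MED1 and 7 with SMC1A. NIPBL was 11.6 and 8.05 and MED1 18.1 and 38.3 at chr17:57906463-57907207. RFTN1, which encodes the B cell lipid raft protein raftlin, had 8 regions within 17.4 kb at chr3:16545699-16563074. A single MED1 peak lay over 6 of them in both replicates. There were MED1 peaks of 10877 and 12306 bp, and MED1 filled 81.0% and 98.2% of the span. SMC1A was at 5 and did not exceed 5.05 and 6.28, and the strongest NIPBL region, chr3:16553165-16554317, was at 10.1 and 7.83.

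Clusters of 8 to 10 regions to which no gene is assigned here are given next. On chromosome 20, 10 regions over 47.4 kb at chr20:52509500-52556946 all had MED1, with NIPBL at 7.09 and 7.07 at the first of them. SMC1A was strong at the last, chr20:52556193-52556946, at 20.1 and 23.6, but highest away from it, at 25.8 and 32.5. Another 8 regions on that chromosome, over 48.6 kb at chr20:52322821-52371431, all had both partners, and NIPBL reached 6.16 and 7.44. Chromosome 9 had a pair of close neighbours. The left one held 10 regions over 29.8 kb at chr9:114727776-114757568, 9 with MED1 and 7 with SMC1A, and NIPBL of 8.82 and 5.87 at its seventh region. The right one held 10 regions over 25.9 kb at chr9:114774447-114800322, all with both partners, and its strongest, chr9:114793434-114795194, had NIPBL at 10.9 and 9.0, MED1 at 12.3 and 25.5 and SMC1A at 6.86 and 11.1. At chr1:235090605-235123938, 9 regions over 33.3 kb all had MED1, and a wide region of 3623 bp, chr1:235113654-235117276, had NIPBL at 10.3 and 10.9 with MED1 at 15.4 and 30.3. On chromosome 10, 9 regions over 30.3 kb at chr10:89821848-89852118 all had both partners, with NIPBL at 10.0 and 8.18 in the second.

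On chromosome 8, 8 regions over 45.8 kb at chr8:142094432-142140197 all had both partners, and the left end, chr8:142094432-142094864, had SMC1A at 25.6 and 27.9. Another 8 over 39.7 kb at chr8:101475714-101515373 had their strongest region at the right end, chr8:101513598-101515373, with NIPBL at 12.1 and 8.89 and MED1 at 18.6 and 40.7. Chromosome 17 had 8 regions over 40.9 kb at chr17:30810711-30851633, whose first region, chr17:30810711-30810932, had SMC1A at 23.8 and 29.5 with NIPBL at 3.95 and 4.08. Chromosome 4 had 8 regions over 40.8 kb at chr4:84133513-84174263, all with both partners, and SMC1A of 25.6 and 29.3 at the right end, chr4:84173902-84174263. On chromosome 19, 8 regions over 35.8 kb at chr19:50844248-50880002 had their strongest NIPBL, 7.75 and 8.67, at a region without an SMC1A peak, chr19:50850314-50850972. Chromosome 14 had 8 regions over 35.6 kb at chr14:65753132-65788767, with NIPBL of 7.13 and 5.95 at a region 1773 bp wide.

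Chromosome 15 had 8 regions over 34.5 kb at chr15:70770921-70805385, of which 5 had MED1 and 7 had SMC1A, with no MED1 region at either end and SMC1A of 27.5 and 32.8 at the right end, chr15:70805048-70805385. A further 8 on that chromosome, within 22.3 kb at chr15:74674907-74697167, all had both partners. There the strongest region, chr15:74688748-74690422, had NIPBL at 8.52 and 7.46 and MED1 at 18.6 and 40.4, and the left end, chr15:74674907-74675184, had SMC1A at 22.5 and 28.0. On chromosome 2, 8 regions over 33.8 kb at chr2:231442844-231476621 all had MED1. Its right end, chr2:231475488-231476621, was the strongest in NIPBL, at 9.75 and 7.98, and in SMC1A, at 22.4 and 23.9, but weak in MED1, at 2.82 and 6.64. The last of these, on chromosome 6, held 8 regions within 24.1 kb at chr6:113946831-113970978, all with MED1 and 7 with SMC1A, and SMC1A did not exceed 5.76 and 6.96.

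The 186 clusters of 5 to 7 regions ranged over the same forms, and those at well-known genes or at the extremes are given here. Compact clusters made up 1 form. SLAMF1, a lymphocyte surface receptor gene, had 5 regions in 6.29 kb at chr1:160611016-160617309 with gaps of 45 to 143 bp, so that NIPBL filled 94.4% of the span, the highest share of all clusters. MED1 was at all 5, with 1 peak over every one of them in replicate 2, and SMC1A at 1. PIK3CD, the lymphoid PI3 kinase subunit, had the shortest cluster, with 5 regions in 5.31 kb at chr1:9711355-9716661, all with MED1 and 3 with SMC1A. MIR3142HG, the host gene of miR-146a, an NF-kappaB target, had 6 regions in 6.18 kb at chr5:159894439-159900618, 5 with MED1 and 1 with SMC1A. CCND2, which encodes cyclin D2, had 6 in 8.29 kb at chr12:4378099-4386391, all under MED1 that filled 100% of the span in replicate 2. It also had SMC1A at 22.3 and 27.1 in its last region, chr12:4385941-4386391. Short clusters also lay at HES1, a Notch target gene, with 5 regions in 7.28 kb at chr3:193848783-193856062, at DUSP5, a phosphatase of ERK, with 6 in 7.33 kb at chr10:112257032-112264361, and at FGR, a Src family kinase gene, with 5 in 8.71 kb at chr1:27952564-27961278.

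Genes known for high expression, in most cells or in blood cells, formed another set. At MALAT1, a nuclear long noncoding RNA, 7 regions over 19.4 kb at chr11:65259088-65278448 included the widest clustered region, chr11:65265690-65273165, with NIPBL at 5.42 and 5.31 and MED1 at 9.04 and 18.8, and its last region had SMC1A at 32.4 and 35.6. NEAT1, the neighbouring noncoding RNA, had 6 over 25.1 kb at chr11:65183729-65208864, all with MED1 and 3 with SMC1A, with SMC1A of 36.7 and 40.6 at the first. B2M, the light chain of MHC class I, had 6 over 25.1 kb at chr15:45003074-45028136, all with both partners, and the first, chr15:45003074-45008789, was the strongest with NIPBL at 6.32 and 7.22. ACTB, cytoplasmic actin, had 6 over 15.9 kb at chr7:5565930-5581805, all with MED1, and no SMC1A peak there exceeded 4.72 and 6.61. LCP1, the leukocyte actin bundler, had 7 over 18.5 kb at chr13:46738118-46756620, and it was 1 of the 3 clusters with no region that had SMC1A in both replicates. Its strongest region, chr13:46751773-46756297, had NIPBL at 6.40 and 7.25, MED1 at 5.45 and 11.5 and no SMC1A peak in either replicate. The other clusters with no region that had SMC1A in both replicates lay in the histone gene cluster of chromosome 6. Of these, chr6:26020419-26055992 held 7 regions, all with MED1, and its strongest, chr6:26027231-26027714, had NIPBL at 6.20 and 6.63 beside MED1 at 25.1 and 43.0. The other, chr6:27099547-27115116, held 5, all with MED1, with NIPBL at 4.23 and 5.04 and MED1 at 20.8 and 32.3 at chr6:27106853-27107636.

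Several of the small clusters lay at genes of B cells, and whether they did so more often than at genes at large was not tested. At the immunoglobulin heavy chain gene IGHM, 5 regions over 11.6 kb at chr14:106318044-106329662 ended in chr14:106326434-106329662, where NIPBL was 17.7 and 11.7 and MED1 24.4 and 46.7 but SMC1A 3.13 and 4.63. All 5 had MED1 and 2 had SMC1A. POU2AF1, a coactivator of octamer factors in B cells, had 5 over 12.2 kb at chr11:111238305-111250463, all with both partners. BLK, a B lymphoid kinase, had 5 over 15.7 kb at chr8:11388167-11403831, all with both. PRKCB, the protein kinase C of B cell receptor signalling, had 7 over 27.6 kb at chr16:23847950-23875542, 6 with both and 1 with neither. IRF8, a transcription factor of B and myeloid cells, had 5 over 16.4 kb at chr16:85928081-85944512, 3 with MED1 and 4 with SMC1A. RUNX3, a transcription factor raised in lymphoblastoid lines, had 5 over 19.6 kb at chr1:25273919-25293557, all with both. CCR7, the chemokine receptor that leads lymphocytes to lymph nodes, had 7 over 31.0 kb at chr17:38708396-38739379, all with MED1 and 6 with SMC1A, and NIPBL of 9.65 and 7.70 at chr17:38716561-38719704. At MIR142, a blood cell microRNA gene, 6 regions over 16.1 kb at chr17:56406516-56422660 lay almost wholly under MED1, which filled 79.0% and 96.9% of the span with 1 peak over 5 regions in both replicates.

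CFLAR, an inhibitor of caspase-8, had 7 regions over 16.4 kb at chr2:201981286-201997642, all with MED1 and 4 with SMC1A. BTG1, an inhibitor of proliferation, had 7 over 13.2 kb at chr12:92527434-92540600, 5 with both and 2 with neither. BHLHE40, a transcription factor gene, had 7 over 14.2 kb at chr3:5014766-5028931, all with SMC1A and 6 with MED1, and NIPBL of 8.86 and 10.6 at chr3:5018746-5021330. ZFP36L1, which encodes a protein that speeds mRNA decay, had 6 over 12.2 kb at chr14:69251159-69263378, all with MED1 and SMC1A up to 22.5 and 28.3. SH2B3, a signalling adaptor gene, had a pair of clusters. The 6 regions at chr12:111834689-111845229 all had both partners and began with SMC1A at 35.8 and 35.1, and the 5 at chr12:111867860-111889629 had NIPBL of 9.82 and 10.2 at chr12:111881995-111883364 and ended with SMC1A at 25.2 and 30.4 at chr12:111889376-111889629. UGCG, glucosylceramide synthase, and FCRLA, an Fc receptor-like gene of B cells, had the loosest clusters among these genes. The 6 at UGCG spread over 48.8 kb at chr9:114659069-114707818 with a median gap of 10003 bp, 5 with both partners, and the 5 at FCRLA over 38.0 kb at chr1:161676217-161714180 with gaps of 5077 to 11722 bp, 3 with MED1 and 4 with SMC1A.

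The extremes of strength lay at small clusters. NIPBL was highest of all clustered regions at the right end of 5 regions on chromosome 7, chr7:55601706-55603115, at 18.8 and 16.8, with MED1 at 18.0 and 38.0 and SMC1A at 9.08 and 7.65. At the low extreme, the strongest of 5 regions at chr5:100224838-100240537 reached 3.60 and 5.33. A region with high SMC1A was itself the strongest NIPBL region at chr1:181111505-181112099, where SMC1A was 55.4 and 61.0, NIPBL 6.03 and 10.2 and MED1 8.83 in replicate 2 alone. The widest MED1 peak, of 20758 bp in replicate 2, lay in a cluster of 6 regions at chr14:22933240-22960137, in the T cell receptor alpha locus, with NIPBL at 4.71 and 4.89 in its strongest region and SMC1A up to 33.1 and 31.9.

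In 8 clusters MED1 reached fewer than 50% of the regions. The fewest were 1 of 5 at chr12:32039763-32060314, whose strongest region, chr12:32049139-32050103, had NIPBL at 10.9 and 8.68, MED1 at 4.61 and 12.9 and SMC1A at 5.54 and 8.52, while 3 of the 5 had neither partner. Also 1 of 5 had MED1 at chr7:69150276-69165486, and there 3 had neither partner as well. In the other 6, MED1 was at 2 regions, of 6 at chr14:103230316-103252849 and of 5 at chr7:130692344-130725383, chr1:93416786-93443517, chr13:99153245-99176091, chr19:55028746-55044095 and chr10:89867885-89878184. The last of these had SMC1A at all 5, and SMC1A was at 3 or 4 regions in the other 5. At the strongest of these regions in MED1, chr14:103230316-103231208, MED1 was nevertheless 12.4 and 29.7.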

How the data were processed

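ChIP-seq libraries of NIPBL, MED1 and SMC1A (2 each) from untreated GM12878 cells were analysed as peak lists. Per the submitters' processing notes, Trimmomatic 0.33, BWA 0.7.12 and MACS2 2.1.0 were used on hg19, with parameters not given in the sources used here. According to the labels, each ChIP library had the pool of both whole cell extracts as its control, so peaks were called per library. The deposited fold enrichment is a ratio to the local control. Peaks are ranked by that fold, the −log10 q that the authors deposited set the stricter peaks, their −log10 p served for pileups, the deposited score was not used, and the deposited summit offset (bp) placed the summits.

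From these, peaks were merged, stitched and overlapped (at least 1 bp shared) in Python 3.11.15 with numpy 2.4.6, pandas 2.3.3 and scipy 1.17.1. A region "with" a partner overlaps a merged partner region that holds peaks of both replicates. Libraries, not regions, were the replicates of the permutation tests. Intervals are Clopper-Pearson. Pileups were solved from fold enrichment and p-value, and the files give no read totals. The merging and overlap steps were tested on simulated regions. Alternatives were another stitching distance, stricter peaks, equal list lengths, overlap by summit, a peak of either NIPBL replicate, each library left out, and chromosome X. Strong SMC1A ends and their percentile settings were added after seeing the data.

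The members, lists and names were chosen with earlier results of these data known. The rule was to describe every cluster: the 12 with most NIPBL regions have values of every library, 41 of the next 43 a short account (2 are not reported here), and the 186 with 5 to 7 regions are summarised, with named examples chosen after their values were seen. No hg19 genome or annotation was used, so exons, introns, motifs, gene lists and sequences are not given. The 67 gene names at 64 clusters come from general knowledge of hg19. All 67 symbols are on the same chromosome in the RefSeq table (GRCh38.p14), and 126 of 126 pairs of names on 1 chromosome are in the same order there.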

Additional observations from a re-analysis of the deposited data

Results flagged for a closer look

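Chromosome X lies outside the rule but held clusters of the same kind. There were 4 clusters of 5 or more NIPBL regions on it, with 37 of its 295 NIPBL regions. The largest, at chrX:130862362-130956845, held 19 regions, more than the 16 of the largest cluster on chromosomes 1 to 22. The other clusters on X held 7, 6 and 5 regions, at chrX:13017331-13048702, chrX:13092621-13111364 and chrX:13760924-13780042.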

How the results depend on the processing

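The number of clusters followed the definition. It was 109 with peaks of −log10 q of at least 5, 834 with a peak of either NIPBL replicate, 409 stitched at 25 kb and 100 at 5 kb, and 241 to 708 with 1 library left out (402 without NIPBL replicate 1, 708 without NIPBL replicate 2). The clustered regions numbered 638, 6606, 2972 and 591 under these settings, and 1559 to 5525 with 1 library left out (2867 and 5525 without NIPBL replicates 1 and 2). A cluster of 5 or more built from NIPBL replicate 1 alone overlapped 241 of the 241, and from replicate 2 alone 240. By the rule each clustered region holds a peak of both replicates, so this overlap was nearly fixed in advance and tests nothing. Of 156 values for the number of regions in the 12 largest clusters under alternatives, 115 stayed within 1.5 times and 41 moved further. Leaving out a MED1 or SMC1A library, requiring the partner summit inside the region or adding chromosome X cannot change these numbers. Values from those settings are among the 115 by construction, so the 115 overstates how stable the cluster sizes were. All 41 came from settings that alter the NIPBL regions or their stitching.

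Clustered regions exceeded other regions in mean partner coverage by 6.80 to 15.4 points under every alternative run. MED1 minus SMC1A coverage was -3.88 points with the partner summit inside the region, 79.2 with equal numbers of top peaks, and 3.91 to 15.4 with 1 library left out. With the replicate number as a block (MED1 and SMC1A labels permuted within the pairing) the difference was the same 9.65 points, with an exact permutation p of 0.50, the smallest that 2 pairs allow. Nothing in the labels says that the number marks a shared culture, so the pairing is nominal.

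The end minus inner difference in SMC1A coverage was 6.51 points with −log10 q of at least 5, 14.7 with equal top peaks, 1.79 with the summit inside, 5.09 with either NIPBL replicate, 2.50 at 25 kb, 6.34 at 5 kb and 3.52 to 6.03 with 1 library left out. For strong SMC1A it was 12.2 points, and 5.44 with equal top peaks, 10.2 with the summit inside, 7.38 with either replicate, 5.84 at 5 kb, 15.3 and 8.68 for strong peaks above percentiles 70 and 90, and 7.29 to 13.1 with 1 library left out. For SMC1A peaks outside minus inside the median percentile differed by -5.94 with equal top peaks, 7.56 with either replicate and -2.03 to 5.41 with 1 library left out, so its sign was not settled. The causes were not tested. Peaks below 7 to 11 fragments at the summit were not called, which limits the detection of weak partners, and MED1 replicate 1 has the shortest MED1 list.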

Other observations

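A pair of clusters with unlike make-up lay in and next to the T cell receptor alpha locus, which B cells do not rearrange. In the right one, 5 regions over 20.6 kb at chr14:23018817-23039441, all 3 proteins were high at the strongest region, chr14:23024602-23026661, with NIPBL at 13.1 and 10.8, MED1 at 21.6 and 34.2 and SMC1A at 35.3 and 39.5. Its last region, chr14:23038917-23039441, had SMC1A at 34.0 and 37.9 with MED1 at 10.9 and 23.5. In the left one, 6 regions over 26.9 kb at chr14:22933240-22960137, NIPBL was no higher than 4.71 and 4.89 at the strongest region although MED1 peaks filled 61.0% and 74.7% of the span. Neither end of the left cluster had an SMC1A region of both replicates.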
